A study of Mus musculus with 32 samples.

Results

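The genes described here were 33 marker genes of the inner retina and of retinal glia, chosen by name from what is known of retinal cell types and followed in RNA that was prepared from the retinal pigment epithelium (RPE) after the retina had been removed. They comprised 8 genes of bipolar cells, 6 of amacrine cells, 5 of horizontal cells or encoding calcium-binding proteins, 9 of ganglion cells or of neurons in general, and 5 of Müller glia and astrocytes, out of 34453 genes in the deposited table. Both eyes of 16 *rd1* mice were measured, 7 mice at P20 and 9 mice at P40. All 32 eyes had received AAV-Best1-GFP and had the *rd1* background of photoreceptor degeneration. AAV-Best1-Nrf2 was added on 1 side of every animal (Nrf2 eye), and the eye on the other side served as its control (control eye). The Best1 promoter is that of a human gene expressed in the RPE, and the Nrf2 coding sequence was human, so the transgene was counted apart from the mouse gene. The methods of the study name other numbers of pairs than the labels do, and CD1 mice at P40; the strain at P40 was taken here from the labels, which give *rd1*.

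Light signals leave rods and cones at ribbon synapses, where bipolar cells receive them, and ON bipolar cells read glutamate through the receptor mGluR6 and the channel TRPM1. Horizontal and amacrine cells shape this signal laterally, ganglion cells send it to the brain, and Müller glia span the retina and clear glutamate and potassium. None of these cells belongs to the RPE, although several of the 33 genes are also used by other tissues of the eyecup, among them *Glul*, *Trpm1*, and *Rbpms*. In bulk RNA, fewer cells of a type and less RNA per cell cannot be told apart.

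The libraries held between 16548332 and 50542797 counts, with a median of 34471849.5, and levels are given as CPM (counts scaled to a common library size) with TMM normalization. A gene with 3 counts or fewer in a library was taken to lie at the floor, equal to 0.0566 to 0.182 CPM. This floor covers counting error only, since the RNA was amplified without molecular identifiers. Genes of the RPE (8 genes, among them *Rpe65* and *Best1*) summed to between 4923 and 70034 CPM in the libraries, so the labelled cell type was present throughout. The transgene separated the groups at P40, with at most 99.2 CPM in control eyes and at least 3205 CPM in Nrf2 eyes. At P20 it did not, since the library labelled control of mouse 3 held 1098 CPM and the library labelled Nrf2 of mouse 4 held 1082 CPM. The latter pair also lay closer to each other than any other pair of libraries, with a squared difference of 8.03 times the sampling noise against 46.9 for the next pair, and results at P20 were therefore also computed without mice 3 and 4. Nothing in the labels says which of the 2 sequencing runs a library came from.

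Promoters are shown for the ON bipolar genes *Trpm1* and *Grm6* and for *Cabp5*, a calcium-binding protein of bipolar cells, because *Trpm1* followed a course of its own in these eyes while most other genes of bipolar cells were high in the same few eyes. The 250 bases before each RefSeq start site on GRCm38.p6 are given, all on the + strand, 5′ to 3′. Capitals mark TAATCC, the core bound by OTX and CRX factors, TGACNNNGC, the core of the antioxidant response element, and the E-boxes CATGTG and CACGTG, all searched on both strands and shown as they read on the + strand. No motif overlapped another.
*Trpm1* promoter, chr7:64153585-64153834: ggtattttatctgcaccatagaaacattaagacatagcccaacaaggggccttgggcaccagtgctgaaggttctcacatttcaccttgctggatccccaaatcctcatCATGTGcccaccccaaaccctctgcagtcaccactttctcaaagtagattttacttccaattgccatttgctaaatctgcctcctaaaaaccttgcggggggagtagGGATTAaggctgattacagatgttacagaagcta
*Trpm1* promoter, chr7:64185209-64185458: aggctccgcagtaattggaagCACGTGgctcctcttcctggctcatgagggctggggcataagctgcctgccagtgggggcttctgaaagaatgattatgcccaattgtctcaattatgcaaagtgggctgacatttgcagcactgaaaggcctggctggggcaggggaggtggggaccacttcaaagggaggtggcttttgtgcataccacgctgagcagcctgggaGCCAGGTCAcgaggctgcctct
*Cabp5* promoter, chr7:13397905-13398154: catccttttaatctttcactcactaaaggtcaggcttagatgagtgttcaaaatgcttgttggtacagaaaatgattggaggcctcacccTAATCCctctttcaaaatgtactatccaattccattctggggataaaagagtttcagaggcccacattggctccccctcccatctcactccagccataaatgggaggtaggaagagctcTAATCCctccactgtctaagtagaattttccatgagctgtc
*Grm6* promoter, chr11:50850435-50850684: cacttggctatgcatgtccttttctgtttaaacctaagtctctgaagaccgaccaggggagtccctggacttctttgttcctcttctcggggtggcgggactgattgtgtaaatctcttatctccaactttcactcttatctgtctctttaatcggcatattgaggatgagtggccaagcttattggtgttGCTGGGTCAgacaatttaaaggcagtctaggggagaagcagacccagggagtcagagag

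*Trpm1* had 2 start sites in this table, 1 with TAATCC and CATGTG and the other with CACGTG and TGACNNNGC. *Cabp5* had 2 copies of TAATCC, and *Grm6* had 1 copy of TGACNNNGC. Of the 33 genes, 23 had entries that were used, with 31 promoters. Promoters on chromosome 18, where *Aqp4* and *Onecut2* lie, were left out for the 33 genes but not for all promoters. TAATCC was present in 12.9% of these promoters and in 6.25% of all 32851 promoters. TGACNNNGC was present in 22.6% against 10.2%, CATGTG in 6.45% against 12.3%, and CACGTG in 6.45% against 6.02%. These shares describe letters in the windows and were not tested.

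The 33 genes spanned a wide range of levels. Per kilobase of merged exon, the mean over the 32 libraries was highest for *Glul* (131 CPM per kb), *Trpm1* (56.5), *Slc6a9* (47.4), *Sncg* (20.4), and *Pcp2* (17.2). The means of the latter pair were set by the Nrf2 eye of P40 mouse 6, without which they were 8.75 and 5.78 CPM per kb. By the median over libraries the order was *Glul* (121 CPM per kb), *Trpm1* (50.4), *Slc6a9* (43.7), *Rbpms* (8.55), and *Gfap* (5.28), with *Sncg* at 3.38 and *Pcp2* at 1.49. In all 32 libraries 19 genes were over 3 counts, 5 were so in fewer than 16 libraries, and 5 had a mean below 1 CPM. The latter were transcription factors of horizontal or ganglion cells and *Slc32a1*, the vesicular GABA transporter, and in libraries at the floor they were not detectable at this depth. In most genes the level was set by a few eyes, and the heat map of all genes by library shows this as bright columns.

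**Figure D1:**
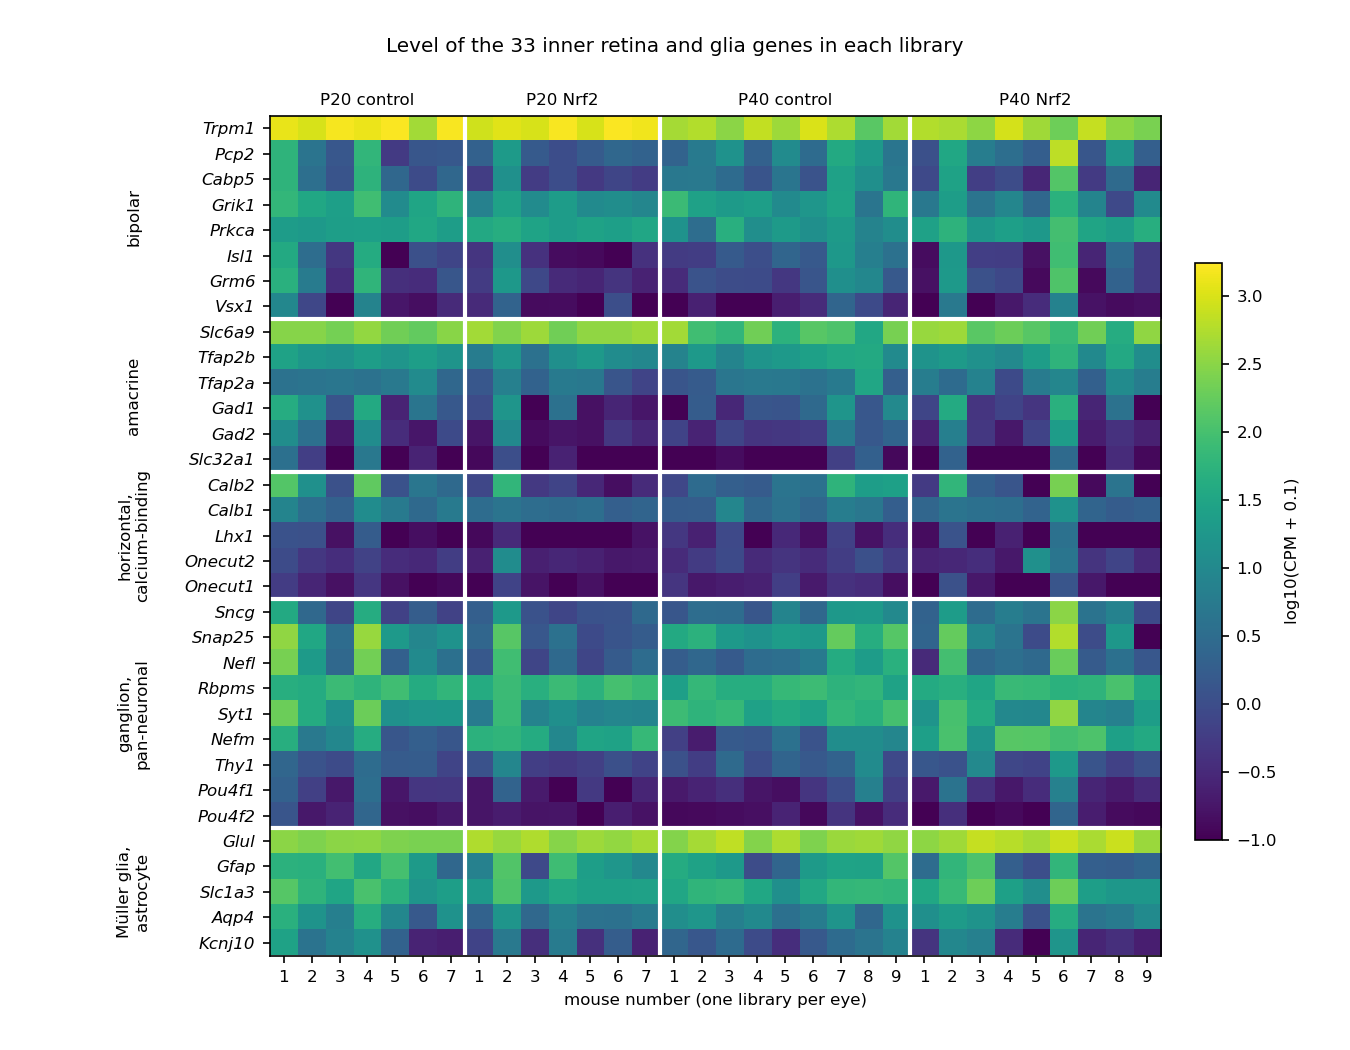
Level of each of the 33 genes (rows, by cell class) in each of the 32 libraries (columns, by group and mouse number), as log10(CPM + 0.1). The control eyes of P20 mice 1 and 4 and the Nrf2 eyes of P20 mouse 2 and P40 mice 2 and 6 stand out as bright columns over most rows, while *Trpm1*, *Slc6a9*, *Rbpms*, and *Glul* are bright in every column.

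Among bipolar genes, *Pcp2*, which encodes a Purkinje cell and bipolar cell protein, ranged from 0.421 to 63.7 CPM in P20 control eyes with a median of 1.36 CPM. It ranged from 0.902 to 20.8 CPM (median 2.03) in P20 Nrf2 eyes, from 1.98 to 38.3 CPM (median 5.41) in P40 control eyes, and from 0.999 to 681 CPM (median 3.31) in P40 Nrf2 eyes. All 4 groups overlapped, and the highest P40 Nrf2 eye, that of mouse 6, alone held 91.2% of the summed level of its group. *Grm6*, which encodes mGluR6, had group medians between 0.343 and 1.25 CPM and reached 59.2 CPM in the P20 control eye of mouse 4 and 118 CPM in the P40 Nrf2 eye of mouse 6. *Cabp5* behaved alike, with medians of 0.494 to 4.89 CPM and a maximum of 127 CPM in that same P40 Nrf2 eye. *Isl1*, a transcription factor of ON bipolar, amacrine, and ganglion cells, reached 88.0 CPM there, and *Vsx1*, a transcription factor of cone bipolar cells, 7.48 CPM against group medians of at most 0.219 CPM. *Prkca*, the protein kinase used to label rod bipolar cells, was expressed more evenly, with medians of 13.05 to 29.5 CPM.

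*Trpm1* was unlike the other bipolar genes. In P20 control eyes it ranged from 449 to 1695 CPM with a median of 1314 CPM, and in P20 Nrf2 eyes from 876 to 1658 CPM with a median of 1163 CPM. In P40 control eyes it ranged from 143 to 1009 CPM (median 483), and in P40 Nrf2 eyes from 202 to 932 CPM (median 437). In no group was the eye highest in *Grm6* also the highest in *Trpm1*, and the ages overlapped. *Trpm1* lies at chr7:64153835-64269775 on GRCm38 and is also known as a gene of pigment cells.

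Of the amacrine genes, those for GABA synthesis and transport followed the pattern of *Grm6*. *Gad1* and *Gad2*, the glutamate decarboxylases, reached 49.3 and 21.9 CPM in the P40 Nrf2 eye of mouse 6, against medians of 0.171 to 4.41 CPM and 0.0752 to 0.811 CPM. *Slc32a1* was at 0 counts in 3 of 7 P20 control eyes and 5 of 9 P40 control eyes, and reached 4.88 CPM in the P20 control eye of mouse 4. *Slc6a9*, the glycine transporter GlyT1, did not follow them. It ranged from 172 to 358 CPM (median 299) in P20 control eyes, from 216 to 464 CPM (median 355) in P20 Nrf2 eyes, from 35.7 to 456 CPM (median 114) in P40 control eyes, and from 42.9 to 427 CPM (median 199) in P40 Nrf2 eyes. Every group overlapped every other. Of the AP-2 factors, *Tfap2b* ranged from 15.4 to 27.5 CPM (median 17.5) in P20 control eyes, from 3.73 to 19.3 CPM (median 11.5) in P20 Nrf2 eyes, from 7.83 to 38.1 CPM (median 18.8) in P40 control eyes, and from 9.84 to 58.8 CPM (median 15.4) in P40 Nrf2 eyes. *Tfap2a* had medians of 2.06 to 6.11 CPM and ranged from 0.658 to 32.8 CPM over all libraries. The 32.8 CPM belonged to the control eye of P40 mouse 8, which alone held 53.3% of the summed level of its group.

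Among horizontal cell and calcium-binding genes, *Calb2* (calretinin, of amacrine and ganglion cells) varied most. It ranged from 1.05 to 163 CPM (median 4.53) in P20 control eyes, from 0.0428 to 63.6 CPM (median 0.411) in P20 Nrf2 eyes, from 0.718 to 59.0 CPM (median 3.78) in P40 control eyes, and from 0 to 241 CPM (median 1.23) in P40 Nrf2 eyes. The Nrf2 eye of P20 mouse 2 held 96.6% of the summed level of its group. *Calb1* (calbindin, of horizontal cells) varied far less, from 1.98 to 11.7 CPM (median 5.59) in P20 control eyes, from 1.84 to 4.22 CPM (median 3.09) in P20 Nrf2 eyes, from 1.60 to 8.99 CPM (median 2.55) in P40 control eyes, and from 1.63 to 14.8 CPM (median 2.41) in P40 Nrf2 eyes. The transcription factors *Lhx1*, *Onecut1*, and *Onecut2* had group medians of at most 0.453 CPM. *Onecut2* was highest in the Nrf2 eye of P40 mouse 5 (13.5 CPM). That eye was the highest of its group for no other of the 33 genes and second for *Nefm* (137 CPM).

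Ganglion cell and pan-neuronal genes included the synaptic genes *Snap25*, of the SNARE complex, and *Syt1*, the calcium sensor of vesicle release. *Snap25* ranged from 3.14 to 388 CPM (median 19.6) in P20 control eyes, from 0.798 to 142 CPM (median 1.60) in P20 Nrf2 eyes, from 14.8 to 175 CPM (median 38.3) in P40 control eyes, and from 0 to 572 CPM (median 4.25) in P40 Nrf2 eyes. Its medians were higher in control eyes at both ages, yet the highest eye of all was a Nrf2 eye. *Sncg*, the γ-synuclein of ganglion cells, ranged from 0.562 to 41.9 CPM (median 1.71) in P20 control eyes, from 0.677 to 19.4 CPM (median 1.11) in P20 Nrf2 eyes, from 1.25 to 19.3 CPM (median 3.15) in P40 control eyes, and from 0.793 to 325 CPM (median 4.19) in P40 Nrf2 eyes. The 325 CPM belonged to the Nrf2 eye of mouse 6, and the next eye of that group had 22.3 CPM. *Pou4f1* and *Pou4f2*, the BRN3 factors of ganglion cells, had group medians of at most 0.395 CPM. *Rbpms*, an RNA-binding protein of ganglion cells that smooth muscle also expresses, was even throughout, with medians of 52.4 to 74.7 CPM.

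Of the glial genes, *Glul* (glutamine synthetase of Müller glia) was abundant in every eye. It ranged from 247 to 334 CPM (median 269) in P20 control eyes, from 301 to 560 CPM (median 418) in P20 Nrf2 eyes, from 264 to 689 CPM (median 403) in P40 control eyes, and from 336 to 828 CPM (median 510) in P40 Nrf2 eyes. *Gfap*, the intermediate filament of astrocytes and of reactive Müller glia, ranged from 2.48 to 98.3 CPM (median 50.1) in P20 control eyes, from 0.754 to 124 CPM (median 17.2) in P20 Nrf2 eyes, from 0.867 to 129 CPM (median 27.7) in P40 control eyes, and from 0.947 to 114 CPM (median 2.28) in P40 Nrf2 eyes. The groups of *Gfap* overlapped across nearly their whole range. The glutamate transporter *Slc1a3*, the potassium channel *Kcnj10*, and the water channel *Aqp4* were highest in the same Nrf2 eye of P40 mouse 6, at 208, 16.4, and 43.1 CPM, among P40 Nrf2 eyes. The Nrf2 eye of P40 mouse 3 was close to it in *Slc1a3* (207 CPM) and was the highest of the group in *Gfap* (114 CPM), but in no other of the 33 genes.

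The same few eyes were thus high for most of the genes. Of the 33 genes, 16 were highest in the library labelled control of mouse 4 and 12 in the control eye of mouse 1 among P20 control eyes. The Nrf2 eye of mouse 2 was the highest P20 Nrf2 eye for 25 of the 32 genes detected in that group. Among P40 Nrf2 eyes, that of mouse 6 was highest for 25 of 33 genes, and that of mouse 2 was second for 23. P40 control eyes were less uneven, with mouse 7 highest for 10 genes and mouse 8 for 9.

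Across the 32 libraries, after subtraction of group means, the median pairwise correlation of the 33 genes on log2 CPM was r = 0.488 over 528 pairs, with a range of −0.616 to 0.936, and 452 pairs were above 0. Among the 15 genes that are least used as markers of other tissues of the eyecup (narrow genes: *Grm6*, *Pcp2*, *Vsx1*, *Cabp5*, *Grik1*, *Gad1*, *Gad2*, *Slc6a9*, *Slc32a1*, *Calb2*, *Lhx1*, *Onecut1*, *Onecut2*, *Pou4f1*, and *Pou4f2*), the median was 0.727. The 2 eyes of a mouse share an animal and all genes of a library share its depth, so these values are descriptions. *Syt1* (median r with the other genes of 0.747), *Grm6* (0.742), and *Cabp5* (0.733) had the highest medians, and *Rbpms* (−0.00), *Slc6a9* (−0.15), and *Trpm1* (−0.20) the lowest. Outside the list, the median r with the 33 genes was 0.44 for the cone opsin *Opn1mw*, 0.01 for *Rpe65*, and −0.22 for the pigment gene *Pmel*.

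The summed level of 14 narrow genes (the 15 without *Slc6a9*, which was set aside after its values had been seen) gave 1 number for each eye. At P20 the control eyes of mice 1 and 4 held 434 and 501 CPM, and the other control eyes 16.4 to 82.0 CPM. Of the P20 Nrf2 eyes, that of mouse 2 held 187 CPM and the others 12.3 to 29.0 CPM. At P40 the control eyes held 30.2 to 194 CPM, and the Nrf2 eyes 8.30 to 32.2 CPM except for mouse 2 with 226 CPM and mouse 6 with 1320 CPM. The control eye held more than the Nrf2 eye in 6 of 7 mice at P20 and in 7 of 9 mice at P40. These counts rest on the omission of *Slc6a9*: with it, the 15 genes were higher in the control eye of 2 of 7 mice at P20 and 4 of 9 at P40, with median factors between the eyes of 1.57 and 1.52. Of the 14-gene sum, the higher eye exceeded the lower by a median factor of 2.53 at P20 and 5.07 at P40, and by up to 35.2 and 43.7. *Grik1* made up a median of 57.0% of that sum, and over 50% of it in 19 of the 32 libraries. Without *Grik1*, an omission also chosen after the values had been seen, the counts of mice were again 6 of 7 and 7 of 9, and the median factors were 3.12 and 2.87. The exceptions, P20 mouse 2 and P40 mice 2 and 6, were the Nrf2 eyes with the highest levels.

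**Figure D2:**
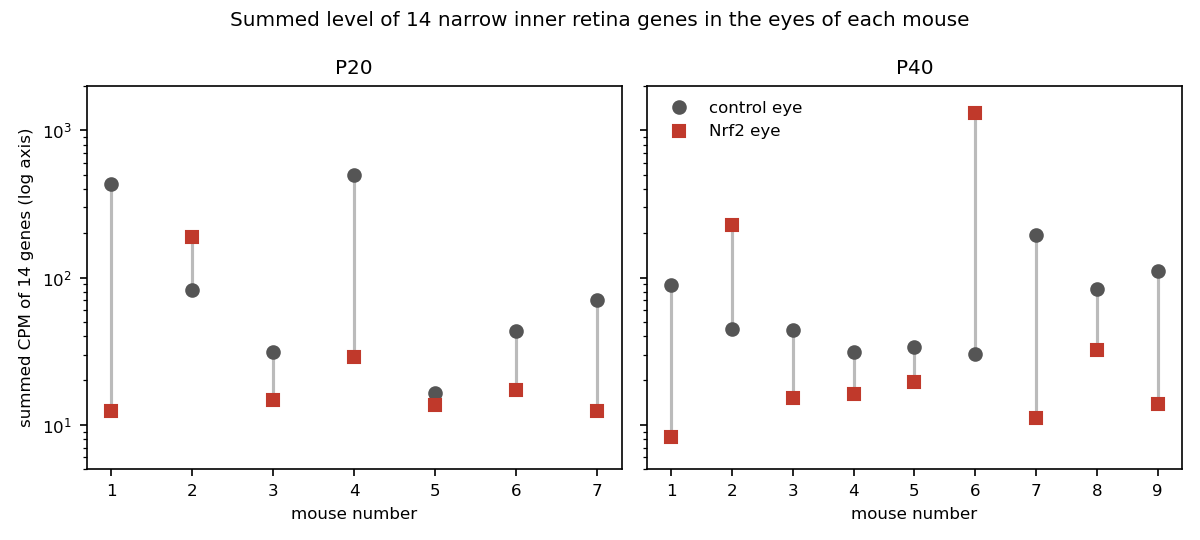
Summed CPM of 14 narrow inner retina genes (log axis) in the control eye (circle) and the Nrf2 eye (square) of each mouse, joined by a line, for 7 mice at P20 and 9 at P40. The control eye lies above the Nrf2 eye in 6 of 7 mice at P20 and in 7 of 9 at P40 (2 and 4 if *Slc6a9* is added), and the Nrf2 eye of P40 mouse 6 lies highest, at 1320 CPM.

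The eyes that were high differed in particular ratios. *Sncg* was 1.73 times *Nefl* in the Nrf2 eye of P40 mouse 6 and 0.160 to 0.453 times in 5 other high eyes. In eyes with lower sums *Sncg* could also exceed *Nefl*, so this was not particular to mouse 6. It was 1.23 times *Nefl* in the control eye of P40 mouse 2. In the Nrf2 eye of P40 mouse 7 the levels of *Sncg* and *Nefl* were 4.12 and 1.53 CPM.

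Photoreceptor genes, counted beside them, did not keep a fixed proportion to the inner retina genes. The sum of 8 cone genes was 1.81 and 1.86 times that of the 14 narrow genes in the control eyes of P20 mice 1 and 4, but 0.233 and 0.239 times in the Nrf2 eyes of P40 mice 6 and 2. In the control eye of P40 mouse 9 it was 18.9 times. Among P40 control eyes the cone sum ranged from 271 to 2106 CPM (median 788), and among P40 Nrf2 eyes from 28.8 to 307 CPM (median 48.7), with 307 CPM in mouse 6. All 8 cone genes were lower in Nrf2 eyes at P40 by the test described next, at which 3.94% of all genes passed.

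**Figure D3:**
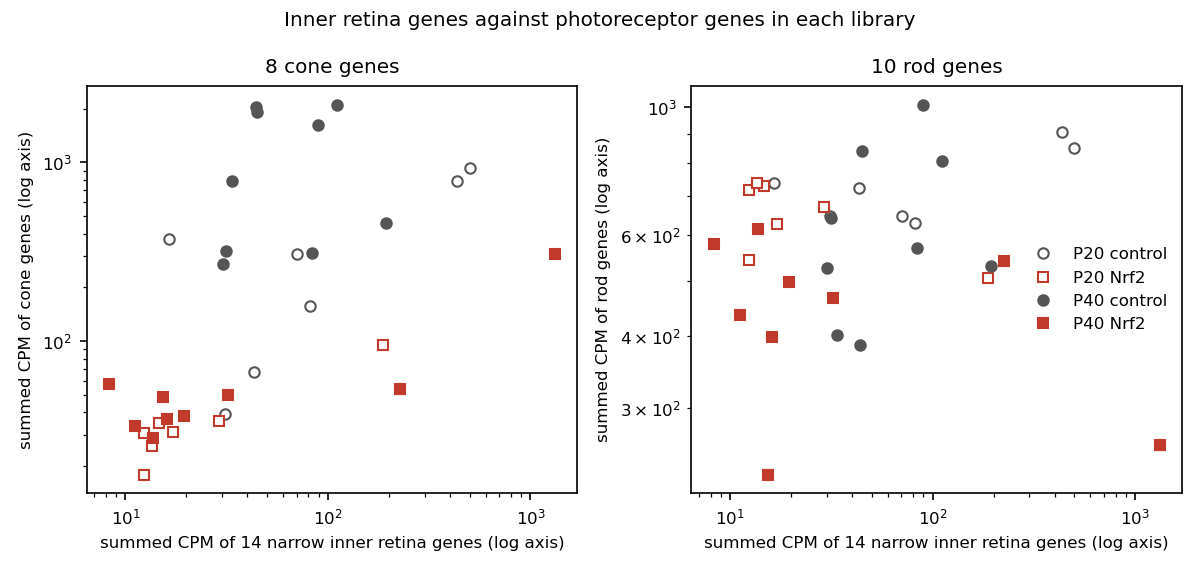
Summed CPM of 14 narrow inner retina genes (horizontal log axis) against the summed CPM of 8 cone genes (left) and 10 rod genes (right, vertical log axes), 1 point for each of the 32 libraries, with open symbols for P20. P40 control eyes lie at 271 CPM of cone genes or more, P40 Nrf2 eyes at 307 CPM or less, and the sum of rod genes stays between 230 and 1012 CPM in both P40 groups.

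With 1 value for each mouse (the mean log2 CPM of its eyes, relative to the mean of its age), *Pcp2* rose with other inner retina genes over 16 mice. The r with *Grm6* was 0.92 (Spearman's ρ 0.87, adjusted permutation *P* = 0.000107 for r and 0.000240 for ρ, 8 relations tested). It was 0.97 within P20 and 0.88 within P40, and 0.89 without the 2 mice farthest from the median of *Pcp2*. *Gad1* had r = 0.87 (ρ 0.82, adjusted permutation *P* = 0.000107, 0.83 without those mice), and *Nefl* r = 0.86 (ρ 0.82, adjusted permutation *P* = 0.000107, 0.82 without them), and both held within each age, with an r of at least 0.776. Of the glial genes, only *Aqp4* and *Glul* were tested. Neither passed, with r = 0.37 for *Aqp4* (ρ 0.36, adjusted permutation *P* = 0.179) and 0.42 for *Glul* (ρ 0.49, adjusted permutation *P* = 0.135). Across libraries, after subtraction of group means, r with *Pcp2* was 0.67 for *Slc1a3*, 0.64 for *Kcnj10*, and 0.39 for *Gfap*. It was 0.56 for *Aqp4* and 0.50 for *Glul* there. *Opn1mw* (r = 0.46, ρ 0.53, adjusted permutation *P* = 0.119) and *Rpe65* (r = 0.10, ρ −0.00, adjusted permutation *P* = 0.711) did not pass.

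Nrf2 eyes were compared with control eyes of the same mice. By the methods of the study, Nrf2 eyes received AAV-Best1-Nrf2, in a different capsid, on top of AAV-Best1-GFP. Their total vector dose was therefore higher. The transgene, the added capsid, and the dose cannot be told apart in any comparison of Nrf2 with control eyes. At P20, 28 of the 33 genes had a lower and 5 a higher fitted level in Nrf2 eyes, with a median log2 fold change of −1.48, where 45.2% of all genes were higher and their median was −0.04. None of the 33 passed an adjusted *P* of 0.05 in edgeR's quasi-likelihood test, against 2.55% of all genes. An unadjusted *P* under 0.05 was reached by 8 of them, against 16.3% of all genes. DESeq2 called 9 of the 33, and 10.6% of all genes. Limma voom with quality weights also called 9, and 12.9% of all genes, and *Cabp5*, *Calb2*, *Gad1*, *Glul*, *Grik1*, and *Snap25* were called by both. Without the mouse as a block, edgeR called *Glul* and *Grik1*, 2 of the 33, and 6.7% of all genes.

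Genes close to the threshold at P20, singled out after their values had been seen, were *Gad1*, *Grik1*, and *Glul*. *Gad1* had a median of 4.41 CPM in control eyes and 0.171 CPM in Nrf2 eyes, was lower in the Nrf2 eye of 6 of 7 mice, and fell short of the threshold with −3.63 on the log2 scale (SE 0.81, adjusted *P* = 0.0557). *Grik1*, the kainate receptor GluK1 of OFF bipolar cells, ranged from 11.2 to 89.3 CPM (median 34.4) in control eyes and from 7.17 to 26.7 CPM (median 11.1) in Nrf2 eyes. It was lower in the Nrf2 eye of all 7 mice (−1.60, SE 0.38, adjusted *P* = 0.0698), although the groups overlapped. *Glul* was higher in the Nrf2 eye of 6 of 7 mice (0.55, SE 0.13, adjusted *P* = 0.0748). Without mouse 4, *Gad1*, *Glul*, and *Nefm* passed, as did 9.76% of all genes. Without mouse 2 *Gad1* alone passed, against 2.11% of all genes, and without mice 3 and 4 none of the 33 did, against 3.43% of all genes.

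At P40, 14 genes had a higher and 19 a lower fitted level in Nrf2 eyes, with a median log2 fold change of −0.10, where 46.9% of all genes were higher and their median was −0.03. *Nefm*, 1 of the 33, passed, against 3.94% of all genes, and 4 had an unadjusted *P* under 0.05, against 12% of all genes. *Grik1* was again lower, in 8 of 9 mice with the exception of mouse 6, and did not pass (−1.78, SE 0.49, adjusted *P* = 0.0731). It passed, as did *Syt1*, when mouse 6 was left out, at which 5.17% of all genes passed, and *Grik1* and *Nefm* were the 2 genes called by DESeq2 (7.53% of all genes) and by limma voom (6.97%), and the 2 with an adjusted *P* under 0.1 (5.09%). Without the mouse as a block *Nefm* alone was called (4.29%).

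Genes of other cell types differed between the same eyes. *Rpe65*, the isomerase of the visual cycle, was lower in Nrf2 eyes, with a log2 change of −2.18 at P20 (SE 0.37, adjusted *P* = 0.0228) and of −2.82 at P40 (SE 0.31, adjusted *P* = 0.000263). It was the 1 gene of 8 RPE genes called at P20, and at P40 5 of the 8 were called, all lower (*Lrat*, *Rdh5*, *Rgr*, *Rlbp1*, and *Rpe65*; list median −1.11). Of 6 macrophage and microglia genes, none was called at P20 and 2 were called higher at P40, *C1qa* and *Cx3cr1*. Of the photoreceptor genes at P20, 8 of 8 cone genes and 9 of 10 rod genes had a lower fitted level in Nrf2 eyes (list medians −3.04 and −1.29), and 1 cone gene, *Gnat2*, was called. At P40 2 rod genes were called lower. The part of these cells in the levels of the 33 genes was not tested.

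*Nefm*, the medium neurofilament subunit of large axons, rose in Nrf2 eyes at P40. It ranged from 0.113 to 12.2 CPM (median 1.47) in control eyes and from 15.8 to 142 CPM (median 94.2) in Nrf2 eyes. The groups did not overlap, the Nrf2 eye was higher in 9 of 9 mice, and the fitted log2 change was 4.65 (SE 0.84, adjusted *P* = 0.00738). Under 16 alternatives the value stayed between 4.03 and 5.10, with an adjusted *P* of 2.71e-13 to 0.0258. At P20 it ranged from 1.26 to 45.3 CPM (median 5.05) in control eyes, where mice 1 and 4 were high, and from 9.06 to 71.2 CPM (median 41.1) in Nrf2 eyes. In 6 of 7 mice the Nrf2 eye held more, mouse 4 being the exception, and *Nefm* did not pass (2.75, SE 1.00, adjusted *P* = 0.218; 3.67 and adjusted *P* = 0.0575 without mice 3 and 4).

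Neurofilaments are assembled from *Nefm* with the light subunit *Nefl*, and *Nefl* did not pass the test. At P40 *Nefl* ranged from 1.47 to 49.6 CPM (median 3.53) in control eyes and from 0.226 to 188 CPM (median 2.73) in Nrf2 eyes, and its fitted log2 change was −0.83 (SE 1.28, adjusted *P* = 0.908). The Nrf2 eye of P40 mouse 4, the highest in *Nefm* with 142 CPM, held 3.51 CPM of *Nefl*. *Nefm* (chr14:68082590-68124846, − strand, GRCm38) and *Nefl* (chr14:68083863-68089095, + strand) overlap in 1108 exon bases, which are 19.2% of the exon bases of *Nefm* and 32.8% of those of *Nefl*. Whether the libraries kept the strand is not given in the sources used here, so reads from these bases cannot be told apart. Of the 33 genes, 11 share exon bases with another gene, among them *Pcp2* with *Pet100* (51.5% of its exon bases) and *Slc6a9* with *Ccdc24* (27.8%).

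**Figure D4:**
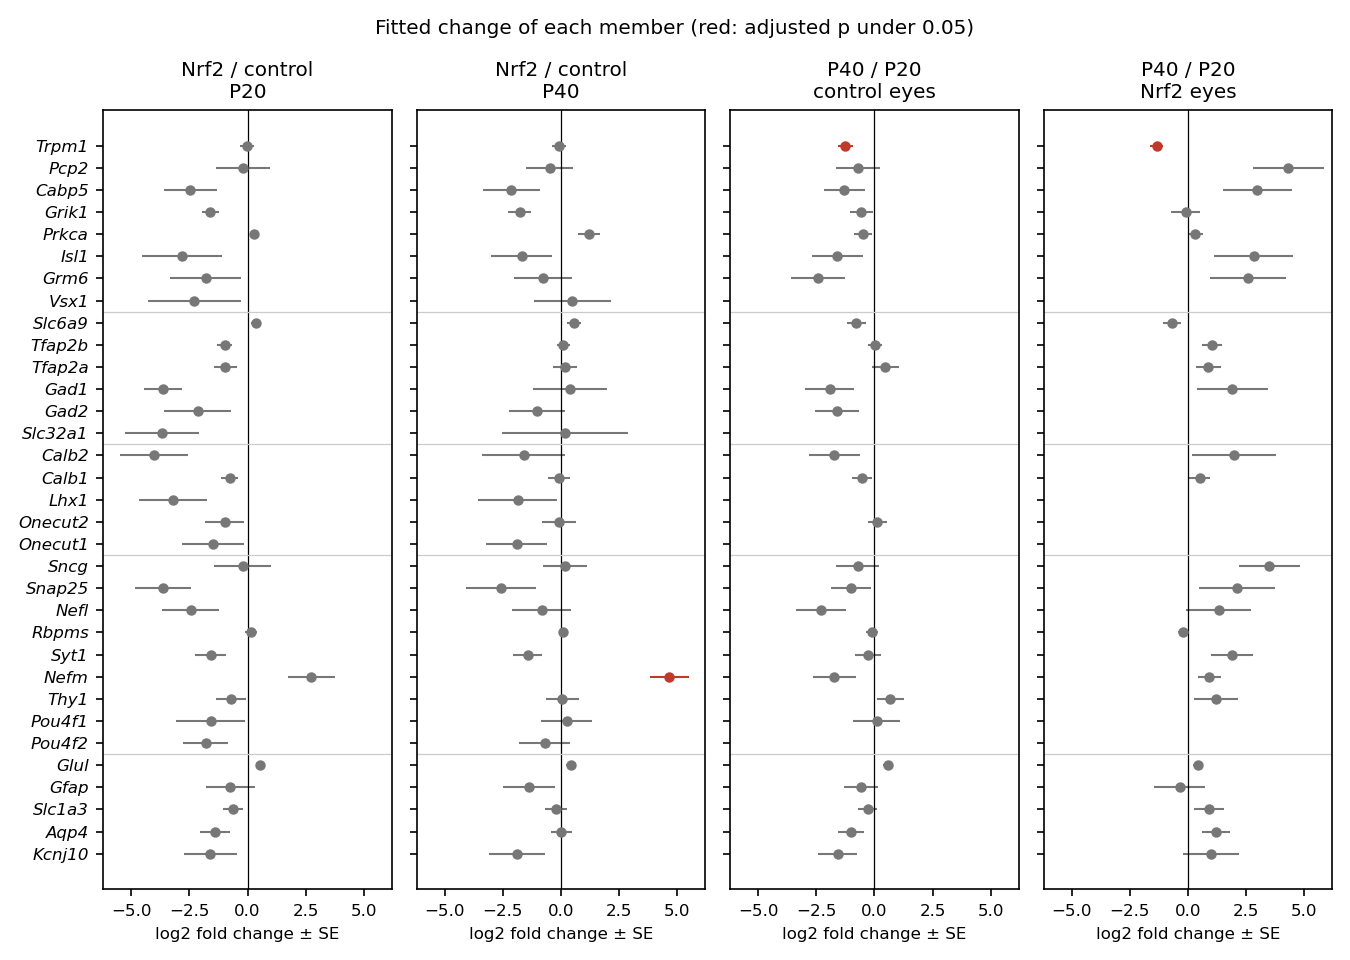
Fitted log2 fold change (point) ± SE (line) of each of the 33 genes in Nrf2 against control eyes at each age, and in P40 against P20 for control and Nrf2 eyes, with red for an adjusted *P* under 0.05. *Nefm* at P40 (4.65) and *Trpm1* with age (−1.26 and −1.34) are the red points, and most other points have an SE that is large beside their value.

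**Figure D5:**
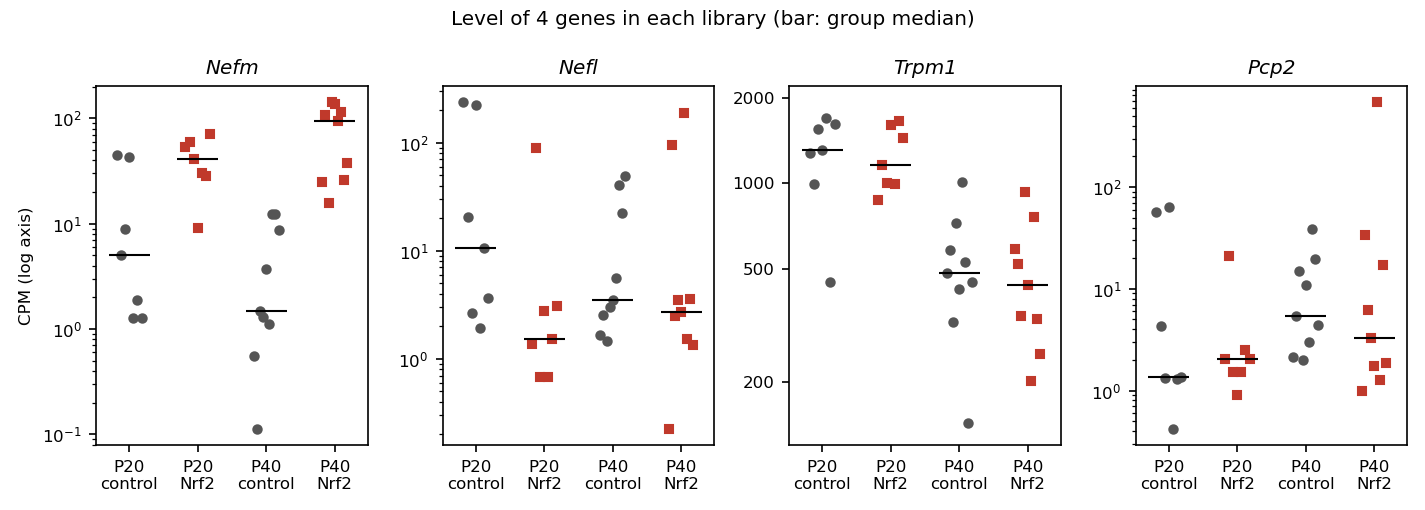
Level of *Nefm*, *Nefl*, *Trpm1*, and *Pcp2* in CPM (log axis) in each library by group, with a bar at the group median. *Nefm* has no overlap between the P40 groups, *Nefl* and *Pcp2* overlap between all groups, and *Trpm1* is lower at P40 in both control and Nrf2 eyes.

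Age was compared in each kind of eye between different mice, and these comparisons share their libraries with those of Nrf2 and control eyes. All P20 libraries have sample titles that begin with M, and all P40 libraries titles that begin with A. What these letters stand for is not given. In every comparison of the ages, age therefore cannot be told apart from a difference between these series of samples. In control eyes 28 genes passed the filter on low counts, 6 with a higher and 22 with a lower fitted level at P40 and a median log2 fold change of −0.71, where 50% of all genes were higher. *Trpm1*, 1 of these, passed, against 14.8% of all genes, and 4 had an unadjusted *P* under 0.05 (35.2% of all genes). DESeq2 called 2 genes, *Trpm1* and *Glul* (26% of all genes), and limma voom 3, *Trpm1*, *Prkca*, and *Slc6a9* (22.3%).

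In Nrf2 eyes 25 genes passed the filter, 20 higher and 5 lower with a median of 1.03, where 51.3% of all genes were higher. Again *Trpm1* alone passed, against 0.502% of all genes, and 4 had an unadjusted *P* under 0.05 (25.8%). DESeq2 called 9 genes (10.9% of all genes), among them *Pcp2*, *Sncg*, and *Snap25*, and limma voom 3 (13.2%), *Trpm1*, *Nefm*, and *Slc6a9*. *Vsx1*, *Slc32a1*, *Lhx1*, *Onecut1*, and *Pou4f2* did not pass the filter in either, nor *Gad2*, *Onecut2*, and *Pou4f1* in Nrf2 eyes. The medians over the genes had opposite signs in control and Nrf2 eyes, and eyes that were high for most of the genes are in both comparisons. These are the control eyes of P20 mice 1 and 4, and the Nrf2 eyes of P20 mouse 2 and of P40 mice 2 and 6.

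*Trpm1* fell by 1.26 on the log2 scale in control eyes (SE 0.32, adjusted *P* = 0.0274) and by 1.34 in Nrf2 eyes (SE 0.29, adjusted *P* = 0.04996). The call in control eyes was lost without the control eye of P20 mouse 1, 3, 5, or 7, and that in Nrf2 eyes was lost in 12 of 16 omissions of 1 eye. Over these omissions the log2 change stayed between −1.43 and −1.14 in control eyes and between −1.51 and −1.24 in Nrf2 eyes. It was kept there without the Nrf2 eye of P40 mouse 1, 2, 4, or 7. Without P20 mice 3 and 4 neither call was made, at 0.916% of all genes in control eyes and 0.116% in Nrf2 eyes. The change with Nrf2 did not pass, with −0.02 (SE 0.32) at P20 and −0.10 (SE 0.31) at P40. *Pmel*, the melanosome protein of pigment cells, fell beside it, by 1.94 in control eyes (SE 0.36, adjusted *P* = 0.00895) and by 2.51 in Nrf2 eyes (SE 0.40, adjusted *P* = 0.00748). Of 5 melanocyte genes, 2 were called in control eyes, both lower (*Pmel* and *Tyr*), and 1 in Nrf2 eyes, against the 14.8% and 0.502% of all genes given above. *Mlana* (0.69, SE 0.47) and *Mitf* (0.63, SE 0.28) had a higher fitted level at P40 in control eyes and were not called. Their summed level had medians of 8958 and 10192 CPM in P20 control and Nrf2 eyes and of 4776 and 3601 CPM at P40, and no gene of that list was at the floor in every library. The part of pigment cells in the level of *Trpm1* was not tested.

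Whether Nrf2 acted differently at P40 than at P20 was tested over all 32 libraries. None of the 33 genes passed in edgeR, against 0.00497% of all genes, in DESeq2 (0.0497%), in limma voom (0.00497%), or without the mouse as a block (0.00557%). *Tfap2b* alone had an unadjusted *P* under 0.05 (2.41% of all genes), with a difference of 1.06 (SE 0.42, adjusted *P* = 1). For *Nefm* the difference was 1.86 (SE 1.31, adjusted *P* = 1), so a larger effect at P40 than at P20 was not shown.

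A further 46 genes of the same cell classes were counted in the same way, of which *Ptf1a* was at the floor in every library. At P20, 9 were higher and 36 lower in Nrf2 eyes (median −0.99), and 1 passed, the bipolar gene *Rgs11* (−0.69, SE 0.15, adjusted *P* = 0.0496), which encodes a regulator of mGluR6 signaling. At P40, 17 were higher and 28 lower (median −0.22), and 2 passed, both higher. These were *Th*, the tyrosine hydroxylase of dopaminergic amacrine cells, which ranged from 0 to 0.546 CPM (median 0.199) in control eyes and from 1.55 to 15.98 CPM (median 5.01) in Nrf2 eyes (log2 fold change 4.57, SE 0.60, adjusted *P* = 0.000870), and the septin gene *Sept4* (1.08, SE 0.21, adjusted *P* = 0.0127), with 73.2 to 155 CPM and 177 to 420 CPM. As with *Nefm*, neither gene's groups overlapped, and the Nrf2 eye of mouse 6 was not the highest in either. With age, *Gpr179*, of ON bipolar cells, was lower in control eyes (−1.87, adjusted *P* = 0.0259), and no gene of the list passed in Nrf2 eyes, where 7 of 30 had an unadjusted *P* under 0.05 in edgeR, and DESeq2 called 4 and limma voom 3, against 10.9% and 13.2% of all genes. At P20 both DESeq2 and limma voom called 13 of the 45 genes between the eyes, against 10.6% and 12.9% of all genes. At P40 they called 8 and 6, against 7.53% and 6.97%, with *Th* and *Sept4* among them at each age. With age in control eyes DESeq2 called 10 and limma voom 1 of 39 genes, against 26% and 22.3% of all genes, and *Gpr179* was not called by the latter.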

How the data were processed

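RNA of the RPE from both eyes of 16 mice was measured. The deposited table holds gene-level estimated counts, which the authors obtained with Salmon (version 0.9.1 in the submitters' processing notes) and rounded to whole numbers. They were not normalized for library size or length, and amplification preceded sequencing. Symbols, coordinates, and exon lengths were taken from GENCODE annotation of GRCm38 and promoters from RefSeq. The 33 genes and all lists were chosen with earlier results of these data known. Genes given with full values were those called in any comparison and the 2 of each class with the highest CPM per kb.

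Counts were analysed with edgeR 4.0.16 in R 4.3.3 (filterByExpr, TMM, quasi-likelihood test, Benjamini-Hochberg adjustment over all genes tested, threshold 0.05). Nrf2 and control eyes were compared with the mouse as a block, because the labels assign both eyes to 1 mouse. Over all genes, the deviations of a mouse's eyes from their groups had an average r of 0.0213 (P20) and 0.0990 (P40). Ages were compared between mice without a block. With the block, P values measure the spread of the differences between the eyes of a mouse. Between ages they measure the spread between mice, as do those of the permutation tests. DESeq2 1.42.0 and limma 3.58.1 voom, other normalization and filters, and omission of each mouse or eye were alternatives. Correlations used log2 CPM with a prior count of 2, and permutation tests were two-sided with 100000 resamples over 16 mice. Scripts were tested on simulated data, with 200 genes changed by 2 on the log2 scale in each comparison. Of DESeq2's calls there, 37.2% were false at P20 (18632 genes), 29.2% at P40 (19348 genes), 20.5% with age in control eyes (16832 genes), and 13.7% with age in Nrf2 eyes (16745 genes), against 2.14% to 4.20% for edgeR and 2.70% to 5.30% for voom in these comparisons. Results for some genes of the other lists are not reported here.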

Additional observations from a re-analysis of the deposited data

Results flagged for a closer look

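Of 64 levels tested for a library far from the others of its group, 19 had one. The rule is set so that chance gives about 5 percent of groups, or about 1 in 20, but that share does not apply here. The levels are not independent, since the same libraries recur. The single genes were also chosen partly by their mean level, which 1 high library can set, as for *Sncg* and *Pcp2*. The 19 are therefore a description. The Nrf2 eye of P40 mouse 6 was far above the other P40 Nrf2 eyes in 7 of them: the summed level of the horizontal genes (266 CPM) and of the ganglion genes (1618 CPM), and the levels of *Pcp2* (681 CPM), *Calb1* (14.8 CPM), *Calb2* (241 CPM), *Sncg* (325 CPM), and *Snap25* (572 CPM). The Nrf2 eye of P20 mouse 2 was far above the other P20 Nrf2 eyes in 6: the summed level of the horizontal genes (80.2 CPM) and of the ganglion genes (475 CPM), and the levels of *Pcp2* (20.8 CPM), *Calb2* (63.6 CPM), *Sncg* (19.4 CPM), and *Snap25* (142 CPM). Among P40 control eyes, that of mouse 7 stood apart in 3, the summed horizontal genes (66.6 CPM), *Pcp2* (38.3 CPM), and *Calb2* (59.0 CPM). The control eye of P40 mouse 1 stood apart in 2, the summed amacrine genes (466 CPM) and *Slc6a9* (456 CPM), which makes up most of that sum. The control eye of P40 mouse 9 stood apart in *Gfap* (129 CPM). No P20 control eye stood apart, where mice 1 and 4 were high together.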

How the results depend on the processing

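At P20, where edgeR called 0 of the 33 genes between Nrf2 and control eyes, DESeq2 called 9, limma voom 9, edgeR with no replicate block 2, and edgeR without each mouse in turn 0 to 3. At P40, where it called 1, DESeq2 called 2, limma voom 2, an adjusted P under 0.1 gave 2 (5.09% of all genes), and omission of each mouse 1 to 3; the fit without the pairing of the eyes called 1. For age in control eyes (1 called), DESeq2 called 2, limma voom 3, omission of each eye gave 0 to 3, and omission of P20 mice 3 and 4 gave 0. For age in Nrf2 eyes (1 called), DESeq2 called 9, limma voom 3, no filter on low counts 0, robust dispersion 0, omission of each eye 0 to 1, and omission of P20 mice 3 and 4 gave 0. The difference between the ages stayed at 0 under every alternative run, the unpaired fit included. The median summed level changed from 2440 to 386 CPM (P20 control), 2431 to 433 (P20 Nrf2), 1510 to 171 (P40 control), and 1755 to 222 (P40 Nrf2) when the 15 narrow genes alone were summed, by construction. Alternatives chosen after the values had been seen moved the sums per eye: with *Slc6a9*, the control eye was higher in 2 mice in place of 6 at P20 and in 4 in place of 7 at P40, with median factors of 1.57 and 1.52 in place of 2.53 and 5.07, and without *Grik1* the factor at P40 was 2.87. The median pairwise correlation was 0.408 to 0.532 without each mouse. Over all genes, the 476 calls at P20 became 1975 in DESeq2, 2404 in limma voom, and 1093 without the block, and the 762 at P40 became 1456 and 1349 in the first 2. The 2483 calls with age in control eyes became 4383, 3747, 914 without a filter, and 158 without P20 mice 3 and 4, and the 84 in Nrf2 eyes became 1832, 2213, 31, and 20. No called value changed sign, and the cause of these shifts was not tested. Low counts limit *Lhx1*, *Onecut1*, *Pou4f2*, *Slc32a1*, and *Vsx1*.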
